A study of Mus musculus with 19 samples.

Results

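DMC1 hotspots of CAST/SPRT and Hum/SPRT were compared to describe where, how strongly and how evenly on the homologs 2 alleles of Prdm9 place meiotic double-strand breaks (DSBs) when each takes the place of the B6 allele on the same hybrid background. All hotspots on the 19 autosomes of these 2 libraries were taken, which is 25319 of the 71181 autosomal hotspots in the 5 tables of the series. CAST/SPRT held 9592 of them and Hum/SPRT 15727. The authors attributed 3470 hotspots of CAST/SPRT to the CAST allele and 4485 of Hum/SPRT to the humanized (Hum) allele, 7955 in all. A further 5123 and 9243 hotspots were attributed to the allele of Mus spretus, which both hybrids carried and which the tables call SPRET. No allele was given for 958 hotspots of CAST/SPRT and 1924 of Hum/SPRT, and 41 and 75 were listed as KO.

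The animals were adult male offspring (B6SPRTF1) of C57BL/6J (B6) females and SPRET/EiJ (SPRT) males, and whole testis was used. B6/SPRT carried the wild-type B6 allele of Prdm9 beside that of SPRT, Hum/SPRT an engineered allele with the zinc fingers of the human PRDM9 B allele, and CAST/SPRT an engineered allele whose DNA-binding array was that of M. musculus castaneus. The mothers of the latter 2 genotypes were heterozygous for the engineered allele, and all 3 genotypes had 1 set of B6 and 1 set of SPRT chromosomes. Each genotype had 1 DMC1 library, so there was no replicate error and no test between genotypes was made. The 95% intervals given below are those of a share or median with the hotspots of a library as units. They hold no variation between animals or libraries, so intervals that lie apart do not establish a difference between genotypes. In whole testis, fewer cells with breaks and less DMC1 per cell cannot be told apart. ChIP libraries hold no expression markers against which the tissue could be checked.

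PRDM9 is a histone methyltransferase of meiotic cells that binds DNA through an array of zinc fingers and trimethylates H3K4 beside its binding sites. SPO11 then makes DSBs near some of these sites, the ends are resected, and DMC1 coats the single strands and searches the homolog for a template. Precipitating DMC1 and sequencing the single-stranded fragments (SSDS) therefore marks where breaks form. The zinc fingers differ strongly between alleles, so that alleles direct breaks to different places. Sites that a lineage has used for long tend to be lost from it by biased repair, which leaves a hybrid with sites that are bound on only one of the homologs.

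The sequences that could be shown were promoter windows that held the center of a hotspot, and they are given to show the kind of place each allele used at a gene start. Of the 3470 CAST hotspots, 12 (0.346%, 95% Wilson interval 0.198 to 0.604%) had a center inside a window from 250 bases before to 50 bases after a gene start, as did 6 of the 4485 Hum hotspots (0.134%, interval 0.0613 to 0.292%). The SPRET hotspots had 0.273% there in CAST/SPRT (0.163 to 0.458%) and 0.227% in Hum/SPRT (0.149 to 0.347%), with intervals that overlapped those of the alleles. The windows below are 300 bases each, read 5′ to 3′ on the gene's strand from RefSeq (GRCm38.p6). Those shown held, for each allele, the strongest hotspot of this kind, the strongest of this kind with 25 to 75% of DMC1 reads from B6, and for Hum also the hotspot whose window held the letters described next. The window of Gm52508 (chr2:44328751-44329050, minus strand) held the second strongest CAST hotspot, and that of Dglucy (chr12:100778807-100779106, plus strand) a CAST hotspot with 37.2% of reads from B6. The windows of LOC108168979 (chr4:129354027-129354326, plus strand), Sumo3 (chr10:77613459-77613758, plus strand) and Gm33727 (chr17:25518339-25518638, plus strand) held Hum hotspots. Capitals mark 20 bases on each side of the hotspot center, except in Gm33727, where they mark the match to the motif.
CAST, Gm52508: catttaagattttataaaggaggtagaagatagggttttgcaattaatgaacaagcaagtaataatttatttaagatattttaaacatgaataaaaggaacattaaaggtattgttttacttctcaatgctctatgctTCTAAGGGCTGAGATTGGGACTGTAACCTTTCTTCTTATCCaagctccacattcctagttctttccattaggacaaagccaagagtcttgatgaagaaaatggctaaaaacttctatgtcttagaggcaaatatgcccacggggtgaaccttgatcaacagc
CAST, Dglucy: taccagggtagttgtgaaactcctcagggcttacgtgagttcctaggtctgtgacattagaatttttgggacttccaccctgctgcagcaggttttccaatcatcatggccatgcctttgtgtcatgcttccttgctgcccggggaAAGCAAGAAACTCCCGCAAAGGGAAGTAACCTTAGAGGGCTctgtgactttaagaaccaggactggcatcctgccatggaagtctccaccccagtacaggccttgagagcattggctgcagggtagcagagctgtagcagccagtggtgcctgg
Hum, LOC108168979: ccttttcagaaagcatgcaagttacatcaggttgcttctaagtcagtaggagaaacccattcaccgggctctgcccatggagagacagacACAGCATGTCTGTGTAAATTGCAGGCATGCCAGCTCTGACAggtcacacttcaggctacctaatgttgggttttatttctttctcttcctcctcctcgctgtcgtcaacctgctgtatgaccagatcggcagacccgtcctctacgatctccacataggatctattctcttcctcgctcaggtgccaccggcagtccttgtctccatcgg
Hum, Sumo3: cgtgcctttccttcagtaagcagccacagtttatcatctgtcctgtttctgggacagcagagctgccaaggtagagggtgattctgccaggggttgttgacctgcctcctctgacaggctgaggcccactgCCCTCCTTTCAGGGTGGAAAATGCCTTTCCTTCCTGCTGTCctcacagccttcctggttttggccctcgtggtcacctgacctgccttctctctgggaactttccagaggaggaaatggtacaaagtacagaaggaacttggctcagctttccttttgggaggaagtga
Hum, Gm33727: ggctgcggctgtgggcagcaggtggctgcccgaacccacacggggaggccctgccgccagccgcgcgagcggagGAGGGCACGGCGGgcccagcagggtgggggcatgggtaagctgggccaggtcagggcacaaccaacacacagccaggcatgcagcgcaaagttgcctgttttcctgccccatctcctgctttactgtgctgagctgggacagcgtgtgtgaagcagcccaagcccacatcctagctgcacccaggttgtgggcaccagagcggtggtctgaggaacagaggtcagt

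The human PRDM9 B allele is known for the degenerate motif CCNCCNTNNCCNC, which was searched on both strands (GNGGNNANGGNGG on the opposite strand). It was present in 6.35% of all 31363 autosomal promoter windows (interval 6.08 to 6.62%). Of the windows that held a hotspot center, it was in 1 of 6 for Hum and 0 of 12 for CAST, and the match in Gm33727 was on the opposite strand, with its middle 34 bases from the center. With windows up to 250 bases from the center included, it was in 2 of 25 for Hum and 0 of 29 for CAST, and in 0 of 32 and 0 of 60 for SPRET hotspots of CAST/SPRT and Hum/SPRT. The intervals for Hum (2.22 to 24.97%) and CAST (0 to 11.7%) overlapped each other and the share over all windows. That for SPRET hotspots of Hum/SPRT (0 to 6.02%) lay below the share over all windows. The 5 hotspots shown differed in strength. The DMC1 heat was 207 at Gm52508 and 20.9 at Dglucy, against 251 at LOC108168979, 86.4 at Sumo3 and 53.1 at Gm33727.

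Heat is the strength that the authors' hotspot caller gave each hotspot, in units whose scaling to sequencing depth is not stated. Read totals are unknown. The weakest autosomal hotspot had a heat of 7.50 in both libraries, while the median was 26.2 in CAST/SPRT and 42.7 in Hum/SPRT and the maximum 269 and 528. Levels were therefore set against the SPRET hotspots of the same library, which both hybrids share.

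By this measure CAST hotspots were the stronger. The heat of CAST hotspots had a median of 25.1 (interval 24.2 to 25.8), with 5% below 9.72, 5% above 90.7 and a maximum of 234. Hum hotspots had a median of 33.8 (32.8 to 35.1), with 5% below 13.5, 5% above 150 and a maximum of 422. The 2 distributions overlapped over most of their range, with Hum higher as listed. Divided by the median of the SPRET hotspots of its own library, however, the median was 0.909 (0.878 to 0.934) for CAST and 0.615 (0.597 to 0.638) for Hum. Among listed hotspots, the CAST median was thus nearly that of SPRET in the same testis, and the Hum median was not. How deep each list reached, described below, enters both ratios.

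The contrast was larger at SPRET hotspots that both libraries listed, a set that left out mainly weak SPRET hotspots of Hum/SPRT. Of these there were 5028 with centers within 500 bp, and their median heat was 27.7 in CAST/SPRT (26.9 to 28.6) and 104 in Hum/SPRT (102 to 106). In units of that median, the typical CAST hotspot had a strength of 0.905 and the typical Hum hotspot 0.325. The 100 strongest hotspots had medians of 4.70 for CAST and 2.25 for Hum, and the 1000 strongest 2.18 and 1.003. The hotspot ranked 1000 stood at 1.42 for CAST and 0.661 for Hum. Summed over all hotspots, the heat of CAST was 0.644 of that of the shared SPRET hotspots, and that of Hum 0.368. CAST was above Hum at every rank plotted. The choice of shared hotspots widened the contrast, since they were 98.1% of the SPRET hotspots of CAST/SPRT and 54.4% of those of Hum/SPRT. Over all SPRET hotspots the median heat was 27.6 in CAST/SPRT, near that of the shared ones, and 55.0 in Hum/SPRT, against 104.

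**Figure D1:**
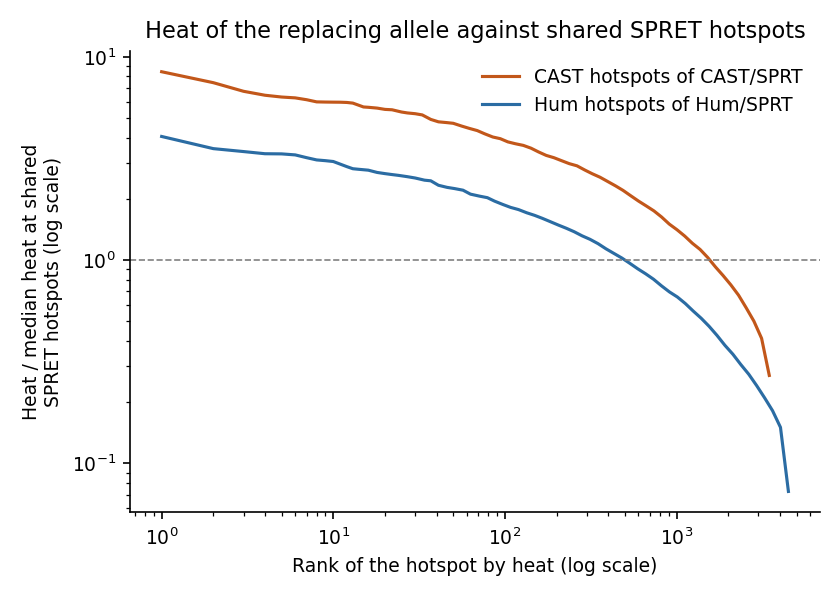
Heat of each allele's hotspots, in units of the median heat at the 5028 shared SPRET hotspots of the same library (vertical, log scale), against the rank of the hotspot from strongest to weakest (horizontal, log scale). Lines stand for CAST hotspots of CAST/SPRT and Hum hotspots of Hum/SPRT, the dashed line marks 1, and the CAST line lies above the Hum line at rank 1 (8.44 against 4.05), rank 100 (3.85 against 1.85) and rank 1000 (1.42 against 0.661).

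Heat was spread over hotspots in a like way for both alleles. The strongest 10% of hotspots held 29.0% of the heat for CAST and 32.3% for Hum, next to 27.4 and 31.1% for the SPRET hotspots of the same libraries. The hottest 788 CAST hotspots (22.7%) and the hottest 905 Hum hotspots (20.2%) carried 50% of their allele's heat.

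The lists differ in how deep they reach. The lowest CAST heat corresponds to 26.2 in Hum/SPRT when scaled by the ratio at shared SPRET hotspots, and 2830 Hum hotspots (63.1%, interval 61.7 to 64.5%) lay at or above it. Hum hotspots over this common floor had a median of 0.507 (0.492 to 0.525) in units of the shared SPRET median, still below the 0.905 of CAST. Divided by the median of all SPRET hotspots of Hum/SPRT over the same floor, the Hum median was 0.682. That is above the 0.615 without the floor and below the 0.909 of CAST. There were 0.677 CAST hotspots for each SPRET hotspot and 0.485 Hum hotspots, or 0.401 over the common floor. CAST thus had fewer hotspots listed than Hum but more of them relative to SPRET.

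Of each allele, the strongest hotspots lay in or near the following genes (centers in mm10). The strongest CAST hotspot, on chromosome 3 at 9028668 in the noncoding gene Gm46832, had a heat of 234, which is 8.44 times the shared SPRET median, and 49.8% of its reads came from B6. The next were on chromosome 2 at 44328892 in Arhgap15, which encodes a Rac GTPase-activating protein (207, or 7.46 times), and on chromosome 13 at 15551069 in Gli3, a transcription factor of hedgehog signalling (188, or 6.76 times). Neither of these had a B6 fraction. Among CAST hotspots with over 75% of reads from B6 the strongest was on chromosome 3 at 83078997, 6.71 kb from Plrg1, a spliceosome component (153, with 99.5% from B6). Among those under 25% it was on chromosome 3 at 65839501, 2.97 kb from Lekr1 (165, with 8.99% from B6).

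The strongest Hum hotspots were all close to evenly used by both homologs. They were on chromosome 10 at 17565320 in the noncoding gene Gm32543 (heat 422, 39.9% from B6), on chromosome 18 at 34810484 in Kdm3b, a histone H3K9 demethylase (368, 44.7%), and on chromosome 4 at 32726867 in Mdn1, a factor of ribosome assembly (356, 46.2%). In units of the shared SPRET median these were 4.05, 3.53 and 3.42, each below the third CAST hotspot. The strongest with over 75% from B6 was on chromosome 5 at 20754332, 4.33 kb from Phtf2 (323, 99.7%). The strongest under 25% was on chromosome 8 at 31141215, 7.90 kb from Rnf122 (299.7, 1.64%).

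Placement along the genome was alike for the alleles at the scale of chromosomes. CAST had 1.45 hotspots per Mb over an autosomal span of 2396 Mb (1.25 to 1.85 across autosomes) and Hum 1.87 (1.59 to 2.96). Hum hotspots outnumbered CAST hotspots on 19 of 19 autosomes, whereas CAST had more hotspots per SPRET hotspot on 19 of 19. An autosome's share of the hotspots had overlapping intervals for both alleles on all 19. Chromosome 19 stood farthest apart, with 2.88% of CAST and 3.84% of Hum hotspots, a ratio of 0.751, and the highest ratio was 1.17 on chromosome 13. Across the 19 autosomes, hotspots per Mb had a Pearson's r of 0.617 and a Spearman's rho of 0.660 between the alleles, as a description of autosomes that share gene content and base composition.

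**Figure D2:**
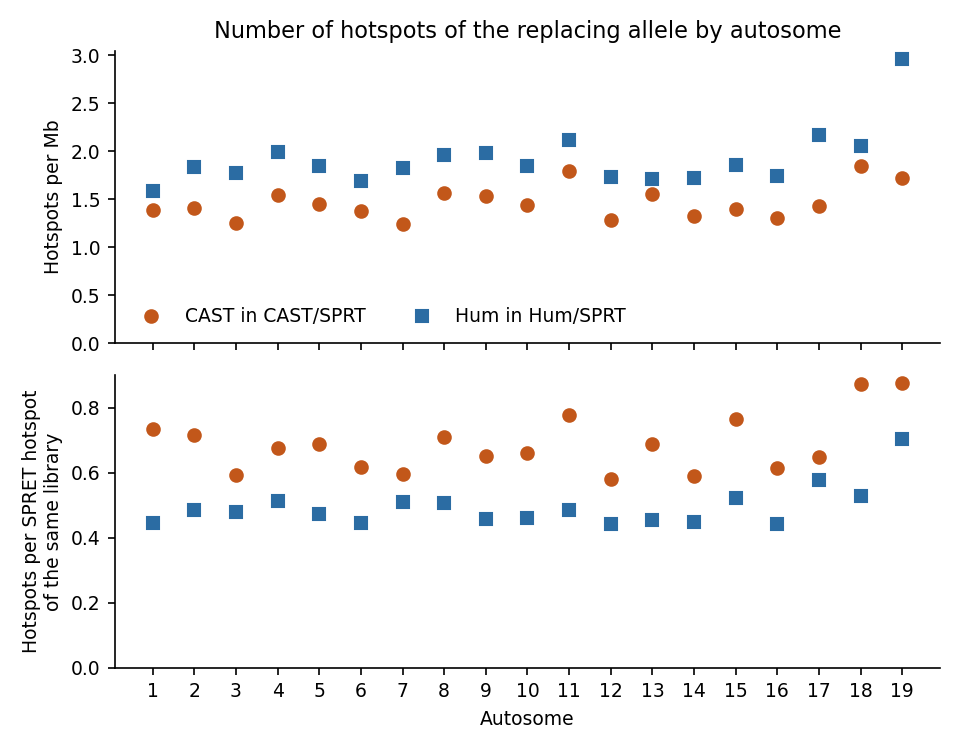
Hotspots of the CAST allele in CAST/SPRT and of the Hum allele in Hum/SPRT on each autosome (horizontal), per Mb (upper) and per SPRET hotspot of the same library (lower), 1 library each. Hum lies above CAST on 19 of 19 autosomes per Mb and below it on 19 of 19 per SPRET hotspot, and chromosome 19 holds the highest Hum density, 2.96 per Mb.

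Within chromosomes, Hum hotspots were the more concentrated at the distal end. Counting from the centromere, the last quintile of the chromosome held 25.9% of Hum hotspots (24.6 to 27.2%) and 22.3% of CAST hotspots (21.0 to 23.7%). The share of SPRET hotspots there was 21.2% in CAST/SPRT and 22.1% in Hum/SPRT. The middle quintile held 16.9% of Hum hotspots (15.8 to 18.0%) and 18.7% of CAST hotspots (17.4 to 20.01%). The heat of CAST hotspots went from a median of 29.2 in the quintile next to the centromere to 23.4 in the distal one, and that of Hum hotspots from 36.3 to 34.0.

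The median distance from a CAST hotspot to the nearest other CAST hotspot was 193 kb (182 to 202), and for Hum 132 kb (126 to 138). In the strongest 3000 hotspots of each allele the median was still larger for CAST, by 33.3 kb. Among the 2830 Hum hotspots over the common floor, fewer than the 3470 of CAST, the median was 209 kb (198 to 219), above that of CAST. Neighbors closer than 2 kb were found for 40 CAST hotspots and 16 Hum hotspots, and closer than 10 kb for 5.13% (4.44 to 5.91%) and 5.75% (5.11 to 6.47%). The nearest SPRET hotspot of the same library lay at a median of 136 kb from CAST and 72.7 kb from Hum hotspots, where Hum/SPRT also had more SPRET hotspots.

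Both alleles were within annotated gene spans somewhat more often than SPRET. CAST centers lay in a gene at 63.9% (62.2 to 65.4%) and Hum centers at 66.4% (65.0 to 67.8%), next to 61.0% (59.6 to 62.3%) and 60.9% (59.9 to 61.9%) for SPRET of the same library, so that the intervals of CAST and SPRET met. For protein-coding genes the shares were 56.9% (55.2 to 58.5%) for CAST and 59.3% (57.8 to 60.7%) for Hum, against 53.2 and 53.1% for SPRET. The intervals of CAST and Hum overlapped in both counts. The median heat inside coding genes and outside genes was 27.1 and 23.2 for CAST, and 34.8 and 32.8 for Hum.

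The alleles differed in how evenly they cut the homologs. With a B6 contribution of 25 to 75% to its DMC1 reads a hotspot was called matched, and it was otherwise placed on the B6 side (over 75%) or the SPRT side (under 25%). The number of reads behind this fraction is unknown. Counting each hotspot with a fraction once, 1342 of 2471 CAST hotspots were matched (54.3%, Wilson interval 52.3 to 56.3%) and 1429 of 3302 Hum hotspots (43.3%, 41.6 to 45.0%). Over all listed hotspots with a fraction, the difference lay on the B6 side. It held 671 CAST hotspots (27.2%, 25.4 to 28.9%) and 1259 Hum hotspots (38.1%, 36.5 to 39.8%). The SPRT side held 458 CAST hotspots (18.5%, 17.1 to 20.1%) and 614 Hum hotspots (18.6%, 17.3 to 19.96%), shares whose intervals nearly coincided.

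The same held by autosome. CAST had the larger matched share on 19 of 19 autosomes, by 4.79 to 27.9 percentage points, and the smaller B6-side share on 19 of 19. The SPRT-side share was larger for CAST on 9 of 19. The matched share of CAST was between 48.5 and 60.9% across autosomes and that of Hum between 31.7 and 51.7%, so that the ranges overlapped. B6-side hotspots outnumbered SPRT-side hotspots on 19 of 19 autosomes for Hum and on 17 of 19 for CAST.

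The median B6 contribution was 50% for CAST and 55.6% for Hum. In bins of 10 percentage points, CAST had its central peak from 40 to 50% (15.3% of hotspots, against 10.1% of Hum) and Hum its largest bin above 90% (25.4%, against 19.9% of CAST). From 80 to 90% there were 10.3% of Hum and 5.42% of CAST hotspots. Values of exactly 100% were listed at 161 CAST hotspots (6.52%) and 28 Hum hotspots (0.848%), and of exactly 0 at 40 and 1. How far the number of reads behind the fraction goes with this was not tested.

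**Figure D3:**
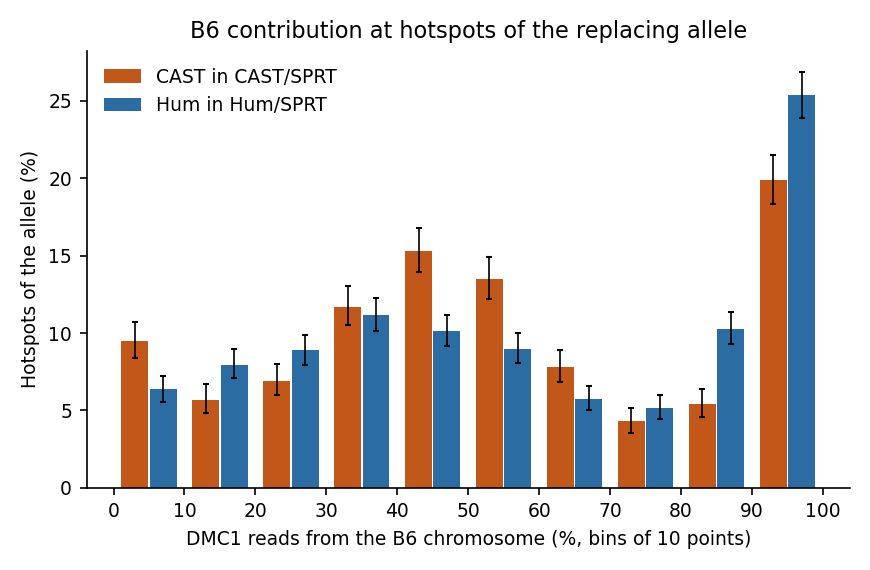
Share of hotspots (vertical, %) by the percent of DMC1 reads from the B6 chromosome (horizontal, bins of 10 percentage points), for 2471 CAST hotspots of CAST/SPRT and 3302 Hum hotspots of Hum/SPRT, with 95% Wilson intervals. The central bins from 40 to 60% are higher for CAST (15.3 and 13.5%, against 10.1 and 8.96%), and the bins over 80% are higher for Hum (10.3 and 25.4%, against 5.42 and 19.9%).

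The strongest CAST hotspots were more often matched than the weakest. From the weakest to the strongest quintile of heat, the matched share of CAST hotspots was 45.7, 51.2, 51.8, 57.8 and 65.5%, a rise at each step. For Hum it was 43.9, 42.6, 39.9, 40.6 and 50.2%, and the intervals of its weakest (40.1 to 47.7%) and strongest quintile (46.2 to 54.1%) overlapped. In the weakest quintile the interval of CAST (41.3 to 50.1%) overlapped that of Hum, and in the strongest (61.1 to 69.7%) it lay above it. The B6 side went the other way, from 34.9 to 14.8% for CAST and from 42.9 to 26.5% for Hum. The SPRT side of Hum went from 13.2% (10.8 to 16.0%) to 23.4% (20.2 to 26.9%), while that of CAST was 19.4 and 19.7% at the ends. Over the common floor, the Hum hotspots had a matched share of 43.5% (41.4 to 45.7%). Their B6-side share there was 34.9% (32.9 to 37.0%) and their SPRT-side share 21.6% (19.8 to 23.4%). All CAST hotspots with a fraction had 27.2% and 18.5% (17.1 to 20.1%), so part of the difference then lay on the SPRT side. The SPRT-side intervals still overlapped.

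**Figure D4:**
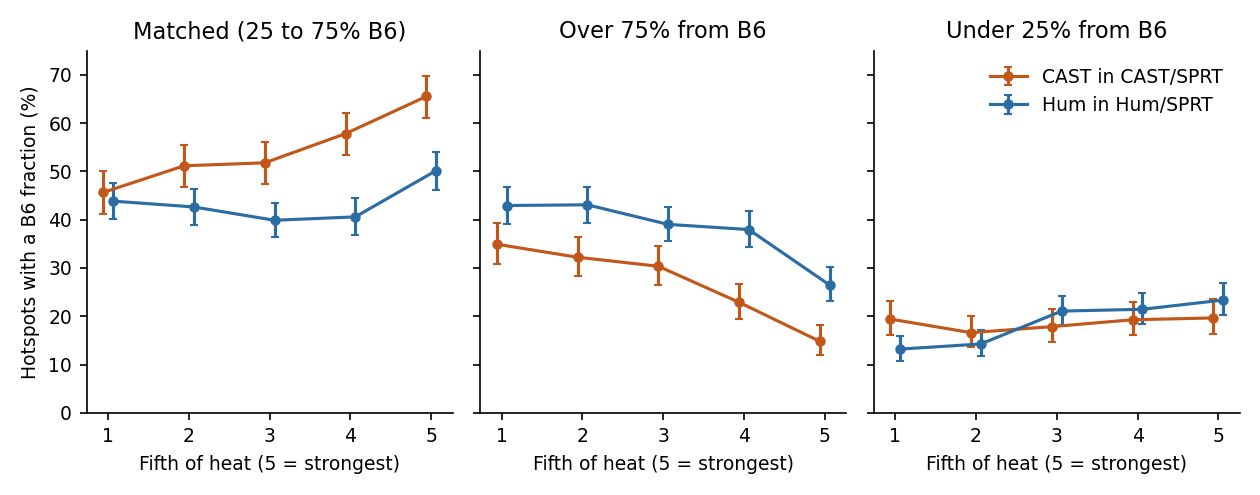
Share of hotspots with a B6 fraction (vertical, %) that were matched, on the B6 side or on the SPRT side, by quintile of heat within the allele (horizontal, 5 strongest), for CAST in CAST/SPRT and Hum in Hum/SPRT, with 95% Wilson intervals. The matched share rises from 45.7 to 65.5% for CAST, and for Hum it is between 39.9 and 50.2%.

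A B6 fraction was absent at 999 CAST hotspots (28.8%) and 1183 Hum hotspots (26.4%), in all quintiles of heat (26.2 to 31.8% for CAST, 21.2 to 32.2% for Hum). These hotspots had median heats of 25.8 and 37.0, next to 25.1 and 33.8 over all hotspots of the allele.

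H3K4me3 gives a second reading of the homologs from other libraries, as values pooled by genotype, with a median of 319 SNP-carrying reads per CAST hotspot and 495 per Hum hotspot. Where DMC1 was matched, H3K4me3 was too. Its median B6 share was 54.3% (53.9 to 54.8%) at matched CAST hotspots and 55.3% (54.8 to 55.9%) at matched Hum hotspots, and 97.8% and 97.0% of them were also matched by H3K4me3. On the B6 side the median was 94.8% (93.8 to 95.4%) for CAST and 88.3% (87.6 to 88.7%) for Hum, and 18.3 and 13.3% of these hotspots were matched by H3K4me3. On the SPRT side it was 24.9% (21.6 to 27.5%) for CAST and 33.0% (31.3 to 34.5%) for Hum, and 49.6% (45.0 to 54.1%) and 69.5% (65.8 to 73.1%) were matched. The classes here were set by the DMC1 fraction itself, so that a difference between the readings within a class is a description only.

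At hotspots without a DMC1 fraction, H3K4me3 was matched at 77.6% for CAST (74.9 to 80.1%) and 84.0% for Hum (81.7 to 86.0%), an order opposite to that seen by DMC1 at hotspots with a fraction. Over all hotspots of the allele, H3K4me3 was matched at 70.3% for CAST (68.7 to 71.8%) and 66.2% for Hum (64.8 to 67.6%). Heat per unit of H3K4me3 enrichment, relative to matched hotspots of the same table, was 1.19 on the B6 side and 1.40 on the SPRT side for CAST. For Hum it was 1.22 and 1.58. At hotspots without a DMC1 fraction, whose class by DMC1 is unknown, it was 1.20 for CAST and 1.32 for Hum.

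Few positions attributed to CAST lay near one attributed to Hum, a count bounded by how alleles were attributed, as given below. Only 13 CAST hotspots had a Hum hotspot center within 500 bp, 0.375% of the CAST list and 0.290% of the Hum list. The next 9 rings of 500 bp, out to 5 kb, held 5 to 13 pairs each, with a mean of 9.11, so that the innermost ring was no fuller than the fullest of those around it. The pairs were mostly weak hotspots. In 11 of 13 the CAST member was below the CAST median heat, and in 10 of 13 the Hum member was below the Hum median. Of the 7 pairs with both fractions, 4 were of the same class.

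The strongest pair by its weaker member was on chromosome 18 at 46223911, 1.89 kb from the noncoding gene Gm52364, with heats of 113 for CAST and 32.9 for Hum, 235 bp apart. In Tspan5, a tetraspanin gene (chromosome 3 at 138800480), the heats were 24.1 and 118.6 and the B6 fractions 30.2 and 16.8%. In Nnt, the mitochondrial transhydrogenase (chromosome 13 at 119390435), the centers were 21 bp apart with heats of 71.8 and 23.4, and both alleles cut mainly B6 (83.3 and 90%). The pair 5.37 kb from Bok, a BCL2-family gene (chromosome 1 at 93680201), had heats of 18.8 and 69.8 and fractions of 100 and 33.1%. In Morn1 (chromosome 4 at 155114003) the heats were 14.3 and 39.5, and the homologs were opposite, with 4.35% from B6 for CAST and 93.1% for Hum.

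Hotspots were attributed by comparison with other mice, and this bounds what the count can show. Of the CAST hotspots with a Hum/SPRT hotspot in reach, all 13 met a Hum hotspot and 0 a SPRET hotspot or one with no allele, and 18 CAST and 21 Hum hotspots met a B6/SPRT hotspot, each attributed to B6. Hotspots without an allele were at 115 positions in both libraries, 12% of those of CAST/SPRT and 5.98% of those of Hum/SPRT. Positions used by both alleles may not all be in the count.

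The SPRET allele was present in both hybrids, and its hotspots show how each partner went with its activity. Of the SPRET hotspots of CAST/SPRT, 98.1% (97.7 to 98.5%) were also listed in Hum/SPRT, whereas 54.4% (53.4 to 55.4%) of those of Hum/SPRT were listed in CAST/SPRT. Which ones were missing followed their strength. From the weakest to the strongest quintile of heat in Hum/SPRT, 2.76, 18.0, 62.7, 92.0 and 96.5% were listed in CAST/SPRT. The 4215 SPRET hotspots not listed there had a median heat of 26.1 in Hum/SPRT (25.6 to 26.7), against 104 for those shared. Shared hotspots therefore under-represent weak SPRET hotspots.

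At the 5028 shared SPRET hotspots, heat was lower in CAST/SPRT by a median of 3.49-fold (log2 ratio -1.80, interval -1.82 to -1.79), with 90% of the ratios between -2.53 and -1.23. The absolute size rests on the scaling of heat, and with heat divided by the total of its library the median was -0.13. Hotspots kept their order, with a Spearman's rho of 0.921 across the 5028 shared positions of the 2 libraries. In the 4928 positions also listed in B6/SPRT, where neither replacing allele was present, the median heat was 27.7 in CAST/SPRT (26.8 to 28.6), 104 in Hum/SPRT (102 to 107) and 184 in B6/SPRT (179 to 187). Relative to B6/SPRT the median was 1.73-fold lower in Hum/SPRT (log2 -0.79) and 6.16-fold lower in CAST/SPRT (log2 -2.62). These ratios share the B6/SPRT values and rest on the same unknown scaling. The total autosomal heat had the same order, with 340939 in CAST/SPRT, 1086060 in Hum/SPRT and 1827740 in B6/SPRT. A fall in SPRET activity is therefore not read from the absolute ratios. The ratio was also tighter for Hum, with an SD over hotspots of 0.285 on the log2 scale against 0.451 for CAST. Heats in CAST/SPRT lay nearer the lowest listed heat of 7.50, and how far this goes with the wider spread was not tested.

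After centering on the median, few SPRET hotspots were at least 2-fold away from the rest. Between CAST/SPRT and Hum/SPRT, 28 of 5028 were higher in CAST/SPRT (0.557%) and 70 lower (1.39%). With a heat of at least 20 in both, 8 of 3349 were higher and 17 lower. Against B6/SPRT, 31 of 4928 were higher in CAST/SPRT (0.629%) and 108 lower (2.19%), whereas 9 (0.183%) were higher and 10 (0.203%) lower in Hum/SPRT. The lower heats of CAST/SPRT enter these counts too.

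The ratio differed with the share of breaks on the B6 chromosome, as read in B6/SPRT, which is a library that does not enter it. SPRET hotspots matched in B6/SPRT had a centered log2 ratio of CAST/SPRT over Hum/SPRT of -0.13 (-0.16 to -0.11, 1008 hotspots). Those on the B6 side had 0.09 (0.08 to 0.11, 2880 hotspots) and those on the SPRT side -0.15 (-0.22 to -0.09, 275 hotspots). B6-side hotspots thus stood apart, while the intervals of the matched and SPRT-side hotspots overlapped. The order of matched and B6-side hotspots was present at each strength. By quintile of heat in B6/SPRT from the weakest, matched hotspots had -0.10, -0.25, -0.22, -0.16 and 0.05, and B6-side hotspots 0.06, -0.03, 0.03, 0.10 and 0.21. The 5 differences were between 0.16 and 0.26.

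Against B6/SPRT this was seen for CAST and hardly for Hum. In CAST/SPRT the median log2 ratio was -2.78 (-2.80 to -2.74) at matched and -2.54 (-2.56 to -2.53) at B6-side hotspots, and in Hum/SPRT -0.81 (-0.83 to -0.79) and -0.80 (-0.81 to -0.79). Over the 4928 positions in all 3 libraries, 24 were at least 2-fold higher (0.487%) and 69 lower (1.4%) in CAST/SPRT than in Hum/SPRT after centering. Of the lower ones, 20 were matched (1.98% of matched), 12 on the B6 side (0.417%) and 12 on the SPRT side (4.36%), and the others had no B6 fraction in B6/SPRT. Of the higher ones, 3 were matched (0.298%), 8 on the B6 side (0.278%) and 6 on the SPRT side (2.18%). SPRT-side hotspots thus had the largest share in both directions. They were also weaker in B6/SPRT, with 98 in the weakest quintile of heat and 12 in the strongest. Of the 6 higher ones, 5 were in the weakest quintile.

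**Figure D5:**
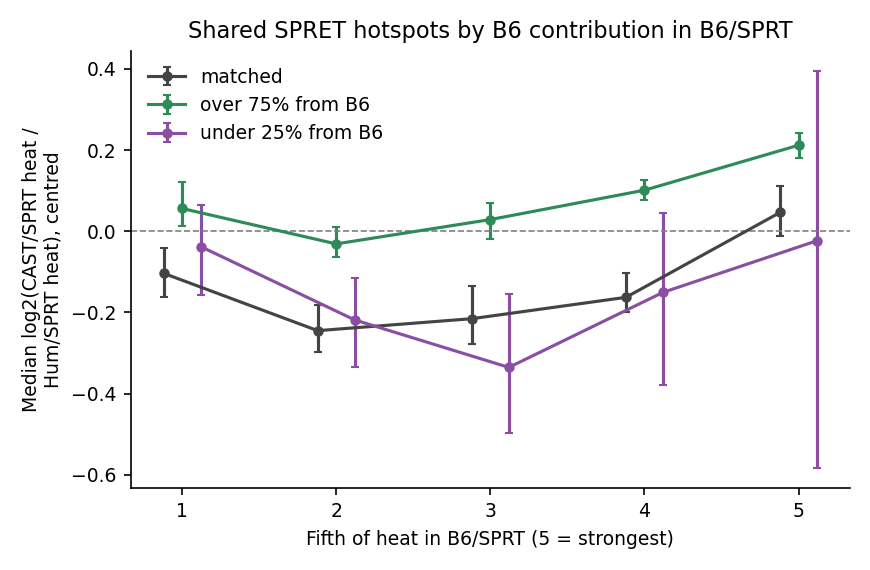
Median log2 ratio of heat, CAST/SPRT over Hum/SPRT, centered on its median (vertical), at SPRET hotspots listed in all 3 libraries, by quintile of heat in B6/SPRT (horizontal, 5 strongest) and by B6 contribution in B6/SPRT, with 95% intervals of the median. B6-side hotspots lie above matched hotspots in all 5 quintiles (0.06 against -0.10 in the weakest, 0.21 against 0.05 in the strongest), and the SPRT-side line rests on 12 hotspots in the strongest.

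The ratio also differed between autosomes. Its median was between -2.06 on chromosome 19 and -1.68 on chromosome 18, or -0.26 and 0.13 after centering, and the interval left out the median over all autosomes on 9 of 19. SPRET hotspots up to 2 kb from a CAST hotspot had a centered ratio of 0.28 (-0.03 to 0.40, 25 hotspots), and those up to 2 kb from a Hum hotspot -0.24 (-0.51 to -0.02, 17 hotspots). The medians of these small groups leaned to the hybrid that held the neighboring hotspot, but the interval of the CAST group held both signs. From 2 kb on, the medians were between -0.05 and 0.03. Hotspots in a library were never closer than 809 bp in CAST/SPRT and 619 bp in Hum/SPRT.

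Of the 4396 shared SPRET hotspots with a heat of at least 50 in 1 of the libraries, the largest ratios were on chromosome 9 at 30928182, 5.73 kb from the metalloprotease gene Adamts15, and on chromosome 10 at 4080028 in Mthfd1l, an enzyme of mitochondrial folate metabolism. The first had heats of 54.3 in CAST/SPRT, 15.1 in Hum/SPRT and 27.8 in B6/SPRT (log2 1.85). The second had 64.9, 21.3 and 39.8 (log2 1.61). Both ran against the lower listed heat of most shared SPRET hotspots in CAST/SPRT. Both were cut almost only on SPRT in CAST/SPRT (0 and 0.813% from B6) and in B6/SPRT (0 and 2.48%), and less so in Hum/SPRT (29.0 and 15.2%). The third was in Runx2, a transcription factor of bone, on chromosome 17 at 44603735, with 39.8, 62.7 and 116 (log2 -0.65). The first and second passed the minimum of 50 only through CAST/SPRT, and the third only through Hum/SPRT. Their paired centers in Hum/SPRT were at 30928107, 4080490 and 44603954, where the median distance over all shared pairs was 59 bp. Whether each pair is the same hotspot was not tested.

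The lowest ratios were in Ptprh, a receptor-type phosphatase (chromosome 7 at 4564161), in the noncoding gene Gm39438 (chromosome 9 at 113445150), and 68.3 kb from 4933430N04Rik (chromosome 8 at 9057086). Their heats in CAST/SPRT, Hum/SPRT and B6/SPRT were 9.29, 164 and 191 at the first (log2 -4.14), 9.76, 152 and 122 at the second (log2 -3.96), and 7.84, 108 and 97.4 at the third (log2 -3.78). In CAST/SPRT all 3 were close to the lowest heat listed. They passed the minimum heat only through Hum/SPRT, where the paired centers were at 4564509, 113445428 and 9057313. Whether these pairs are the same hotspots was not tested either.

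Which homolog the SPRET allele cut changed little between the hybrids. At 3932 shared SPRET hotspots with a fraction in both, the median difference, CAST/SPRT minus Hum/SPRT, was 0.574 percentage points (0.483 to 0.680), 88.5% were within 10 points and 95.6% were of the same class. Matched hotspots were 20.3% (19.1 to 21.6%) of them in CAST/SPRT and 21.4% (20.2 to 22.7%) in Hum/SPRT, the order opposite to that of the replacing alleles. These intervals overlapped, but they do not use that the hotspots were the same in both. Of the 843 matched in Hum/SPRT, 9.96% were on the B6 side in CAST/SPRT and 2.97% on the SPRT side. The other way, 1.23% of 2850 B6-side and 12.6% of 239 SPRT-side hotspots of Hum/SPRT were matched in CAST/SPRT. Weighted by heat, matched SPRET hotspots carried 16.6% in CAST/SPRT and 20.1% in Hum/SPRT.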

How the data were processed

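DMC1 SSDS of CAST/SPRT, Hum/SPRT and B6/SPRT comprised 1 library each, and H3K4me3 ChIP-seq 2 or 3 samples per genotype. The authors identified single-stranded fragments, called hotspots without a prior list, attributed alleles by comparison with other mice and reads to homologs by SNPs. BWA and mm10 are named in the submitters' processing notes. The authors deposited 1 hotspot table per genotype, matched here to the genotypes by the alleles named and the hotspot totals. Heat is the deposited DMC1 signal of their caller, the B6 contribution a deposited fraction whose depth is unknown. The authors deposited for H3K4me3 a ratio of enrichment over input, a fraction from B6 and counts of SNP-carrying reads, taken as pooled over samples. A further 24 columns of values across the 5 tables were not used.

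Values were computed on autosomes in Python (version 3.11.15), with pandas (2.3.3), numpy (2.4.6) and, for intervals, scipy (1.17.1), drawn with matplotlib (3.10.9), and tested on simulated data. Hotspots were shared with centers within 500 bp. Intervals (95%) are Wilson intervals for shares and order-statistic intervals for medians, and cover counting over hotspots only. The precision of heat cannot be given without read totals. Gene names are from RefSeq GRCm38.p6, taken to share positions with mm10. No test across genotypes was made. The hotspots and comparisons were chosen with earlier results of these data known. Hotspots named were the 3 strongest of each allele, the strongest matched, over 75% and under 25% from B6, the 5 positions in common with the largest smaller heat, and the 3 highest and 3 lowest ratios among shared SPRET hotspots with a heat of at least 50 in 1 library. Alternatives changed heat thresholds, windows, weights, limits of the matched range and references, and those added after seeing the data are named in the closing section. The tables of the B6xSTUS hybrids served only for the totals and an overlap of positions.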

Additional observations from a re-analysis of the deposited data

How the results depend on the processing

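Of 45 alternative values for 9 results, 1 reversed and 22 left the interval or moved the count by over 1.5 times. The median distance between neighbors, CAST minus Hum, was 60.5 kb as reported, 153.7 kb with a heat of at least 20, 33.3 kb in the strongest 3000 of each allele and -15.6 kb with the scaled heat floor, which tests fewer Hum hotspots. Relative to SPRET hotspots, the CAST median was 0.938 with a heat of at least 20, 0.935 as a mean and 0.851 at hotspots with a B6 fraction, and the Hum median 0.650, 0.682 with the scaled floor, 0.561 with a B6 fraction and 0.325 against shared SPRET hotspots. The matched share weighted by heat, CAST minus Hum, was 12.9 percentage points, 8.28 with limits of 10 to 90% and 9.01 with missing fractions as unmatched. Positions in common numbered 8 within 250 bp, 25 within 1000 bp and 3 with a heat of at least 20. The log2 ratio at shared SPRET hotspots was -0.13 with heat over the library total and -1.72 with a heat of at least 20 in both. The 28 higher and 70 lower SPRET hotspots became 8 and 17 with that minimum, 232 and 428 at 1.5-fold, and 2 and 4957 without centering. CAST kept the larger matched share and the larger median relative to SPRET in every alternative run. The causes of these moves were not tested beyond what each alternative changes by construction. The alternatives with the scaled floor, shared SPRET hotspots as reference, and the class from Hum/SPRT or within quintiles of heat were chosen after seeing the data. No paired analysis was possible because each genotype had 1 DMC1 library and the H3K4me3 values were pooled over samples. With 1 library, no replicate could be left out.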

Other observations

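The Hum allele was also present in another hybrid, STUS/Hum, whose hotspots come from a separate library and cross. Of the 4485 Hum hotspots of Hum/SPRT, 3179 (70.9%) had a center within 500 bp of a Hum hotspot of STUS/Hum, and 0 met a hotspot attributed to the STUS allele. Of the 3470 CAST hotspots of CAST/SPRT, 0 met a Hum hotspot of STUS/Hum, whereas 439 (12.7%) met a hotspot attributed there to STUS, the allele of a M. musculus musculus strain. A further 166 Hum (3.70%) and 18 CAST hotspots (0.519%) met a position without an allele in STUS/Hum. The authors attributed alleles by comparison with other mice, so these counts depend on the labels as well as on position. Counts of 0 were also found in Hum/SPRT, where CAST hotspots met 13 Hum hotspots and 0 SPRET hotspots. How far the labels set the counts of 0 and the shares above was not tested, and no absence of shared positions is read from them.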
